A study of Mus musculus with 8 samples.

Results

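The genes that move membrane and cargo between the compartments of a cell were compared between *Hdac3* knockout and control cardiac endothelial cells of the mouse. Members were protein-coding genes taken by their symbol: the Rab GTPases, the TBC proteins, the vacuolar sorting (Vps) and sorting nexin (Snx) genes, the Sec genes, the COPI and adaptor (AP) coats, the Arf genes, the SNAREs, and the TRAPP, exocyst and COG complexes. The deposited table held 152 of them among 8278 genes, of which 7976 are protein-coding. The mouse annotation used here (GENCODE M21) has 291 protein-coding genes with such names, of which 156 (53.6%) were in the table, 4 of them under an older symbol of another form that the name rule does not take. Of all 22028 protein-coding genes 36.2% were in the table. The 135 names outside the table were not analysed here.

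Bulk RNA-Seq libraries were made from MCECs, a purchased line of mouse cardiac endothelial cells, in 2 groups of 4. *Hdac3* KO MCECs carried the lentiCRISPR v2 vector with an *Hdac3* guide, and EV MCECs were transduced with the empty vector. Both groups therefore share the lentiviral transduction and the vector. The libraries of a group are numbered 1 to 4, and nothing in the labels says that they came from separate cultures or clones, so the p-values measure the spread between these samples. The study's note on sample size says that its in vitro work typically used technical replicates, its note on replication refers to biological replicates counted in the legends, and neither names these libraries. HDAC3 is a histone deacetylase that acts in corepressor complexes, and the comparison asks how the mRNA of these genes differed when it was targeted.

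Newly made secreted and membrane proteins enter the endoplasmic reticulum through the Sec61 channel and leave it in vesicles coated with COPII. COPI coats, set on the membrane by Arf GTPases, carry material back and within the Golgi. Clathrin adaptors, retromer and sorting nexins then sort cargo at the trans-Golgi network, the plasma membrane and endosomes. Rab GTPases give each membrane its identity, TBC proteins switch Rabs off, tethering complexes (TRAPP, COG, GARP, HOPS, CORVET and exocyst) catch the arriving vesicle, and SNAREs fuse it. In endothelial cells these routes deliver growth factors, matrix proteins and adhesion receptors to the surface and recycle them.

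The table holds only genes with an adjusted p-value under 0.05 in the authors' own comparison of the same libraries. Every member was therefore in the table because it differed there, and the counts of members below describe listed genes and are not a share of all genes of a family. Adjusting p-values over these selected genes is lenient, and with adjustment over 30000 genes 84 members were lower and 54 higher, without *Rab3a*, *Trappc10*, *Sec23b* and *Vps37b*. The 8 libraries had between 15775327 and 22255684 reads, recovered from the counts, gene lengths and FPKM values, and the listed genes held 84.3% to 85.9% of them. *Hdac3* itself had 1934, 2067, 2055 and 2137 normalised counts in the EV libraries and 1551, 1458, 1489 and 1524 in the KO libraries, a log2 fold change of -0.45 (SE 0.04, adjusted p = 1.0e-13, edgeR's quasi-likelihood test). Reads over the whole gene do not measure the protein, which the study followed by western blot in these cells (not analysed here). Of 17 endothelial markers, 7 were in the table. *Kdr*, *Tek*, *Flt1*, *Eng*, *Egfl7* and *Cd34* were called lower, and *Pecam1* was called higher on very few reads, at 0.00802 FPKM in EV and 0.0569 FPKM in KO libraries. *Cdh5*, *Cldn5*, *Emcn*, *Erg*, *Esam*, *Nos3*, *Robo4*, *Sox17*, *Tie1* and *Vwf* were not in the table. A marker of any cell type outside the table can be expressed without a difference or not detected, which cannot be told apart here. The summed FPKM of the 7 ranged from 121 to 123 in EV and from 91.3 to 94.4 in KO libraries, mostly from *Cd34*. The 6 of 10 fibroblast or mesenchymal markers in the table summed to 1947 to 1988 FPKM in EV and 1443 to 1499.9 FPKM in KO libraries, with *Vim*, *Dcn* and *Col1a1* the highest. Of the 6, *Col1a1* was called higher (373 to 404 FPKM) and the other 5 lower. The 2 of 4 smooth muscle markers in the table summed to 24.0 to 29.9 FPKM and 4.83 to 6.11 FPKM. No cardiomyocyte marker of 6 and 1 leukocyte marker of 6 (*Cd68*, 5.70 and 12.1 FPKM) was in the table. The part of these differences in the results on trafficking genes was not tested, and in bulk samples fewer cells of a type and less RNA per cell cannot be told apart.

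Of the 152 trafficking genes, 85 were lower and 57 were higher in *Hdac3* KO MCECs at an adjusted p-value under 0.01, and 10 did not pass. The lower genes were 55.9% of the members, where 49.6% of all listed genes were called lower, and the higher genes were 37.5% of them, where 47.1% of all listed genes were called higher. The same 49.6% and 47.1% are the shares beside which the counts by role below stand. The median log2 fold change was -0.17 over the members and 0.06 over all listed genes. Most changes were small but narrow in error, with a median SE of 0.04. Among the called genes, 44 differed by less than 0.2 on the log2 scale. Beyond a log2 fold change of 0.5 there were 21 lower genes, 13.8% of the members against 23.4% of all listed genes, and 4 higher genes, 2.63% against 15.1%. *Rab27b* and *Tbc1d4* were the 2 genes that fell by more than 1 on the log2 scale, and the only gene past 1 in the other direction was *Sec14l5*, with very few reads.

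The libraries of the groups did not overlap for 138 of the 152 genes. All KO libraries were under all EV libraries for 83 genes, 54.6% of the members, as they were for 46.6% of all listed genes. All KO libraries were over all EV libraries for 55 genes, 36.2% of the members against 44.4% of all listed genes. For a single gene, an exact permutation test (two-sided, all 70 ways of splitting the 8 libraries) cannot go below p = 0.0286, which these 138 genes reached.

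The scaling between libraries matters most for the higher genes. Read counts were scaled with TMM factors. These came from the listed genes alone, all of which differed in the authors' comparison, whereas TMM takes most genes as unchanged. Dividing by the library totals alone moves every log2 fold change by -0.12, and which scale is nearer the truth was not tested. With totals alone the same 85 genes were called lower (49.8% of all listed genes were lower under that scaling), but 22 of the 57 were called higher (32.3% of all listed genes) and the other 35 did not pass. None of the 57 was called lower. All counts with library totals below stand beside these shares of 49.8% lower and 32.3% higher. With size factors recovered from the deposited group means, 83 members were called lower, without *Ap3d1* and *Ap2b1*, and 66 were called higher. The 66 were the 57 and *Copz1*, *Stx3*, *Rab6b*, *Sec22b*, *Vps54*, *Vps29*, *Snx6*, *Rab11fip5* and *Stx1a*. Those added genes are given below as not past the test, which holds for the TMM scale. Under 5 scalings, 85 of 85 lower genes and 53 of 57 higher genes kept their sign. A higher call of less than about 0.12 is thus a change relative to the TMM scale, and the FPKM of such a gene, which rests on library totals, can be equal in the groups.

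**Figure D1:**
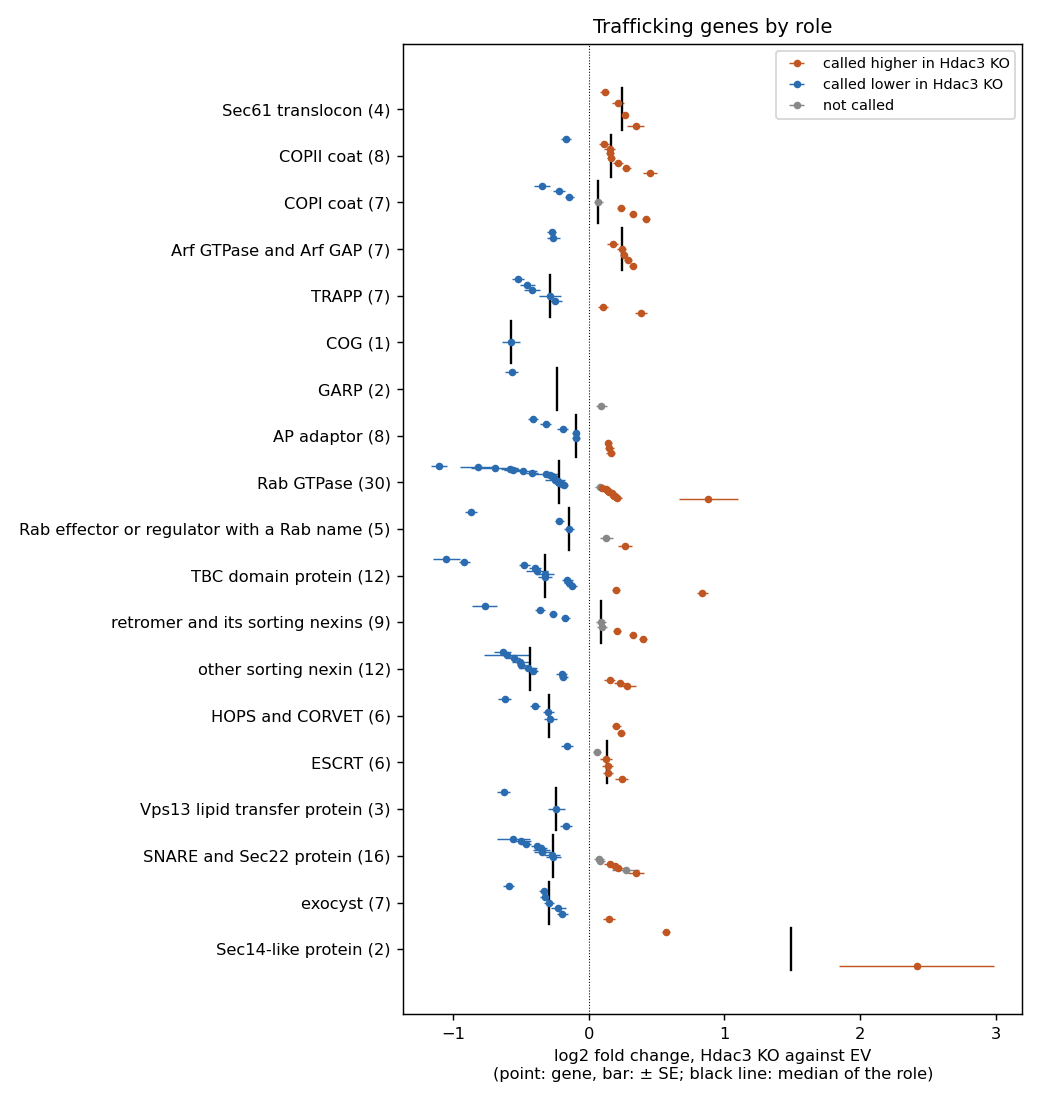
Log2 fold change (*Hdac3* KO against EV, horizontal axis) of each of the 152 genes with its SE, grouped by role, with the number of genes in brackets and the median of each role as a black line. All 4 Sec61 translocon genes and 7 of 8 COPII genes lie to the right of 0, and 10 of 12 TBC genes, 6 of 7 exocyst genes and 9 of 12 other sorting nexins lie to the left, on the TMM scale.

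On the TMM scale, the Sec61 and COPII genes were mostly higher in *Hdac3* KO MCECs, by small amounts. All 4 listed genes of the Sec61 translocon rose, with a median log2 fold change of 0.24 (0.12 with library totals alone, where 2 of the 4 were still called). Among all listed genes, 47.1% were called higher with TMM and 32.3% with library totals. *Sec61a1*, the main pore subunit and the most abundant Sec gene per length at 130.03 FPKM, had 7709, 7739, 7385 and 7821 normalised counts in EV and 9205, 9149.7, 9244 and 9265 in KO libraries (0.27 ± 0.03, log2 fold change ± SE, adjusted p = 1.3e-11 by edgeR). Every KO library was above every EV library. Its much less abundant paralogue *Sec61a2* rose by a like amount (0.34 ± 0.06), from 7.10 to 8.28 FPKM. *Sec61g*, a small subunit of the channel, was at 0.22 ± 0.04. *Sec63*, which couples the channel to the lumenal chaperone, was at 0.12 ± 0.03 with TMM and at -0.00 with library totals, where it was not called. The annotation places genes on the other strand over 8.16% of the exonic bases of *Sec61a1* and 19.9% of those of *Sec61a2*, and no source says whether reads were assigned by strand.

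Of 8 COPII genes, 7 rose and 1 fell (median 0.16), where 47.1% of all listed genes were called higher. With library totals alone 2 of the 7, *Sec24a* and *Sec13*, were still called higher, where 32.3% of all listed genes were. *Sec24a*, one of the subunits that pick cargo for the vesicle, had 604, 617, 693 and 614 normalised counts in EV and 816, 919, 829 and 884 in KO libraries. The KO libraries all lay above the EV libraries, with a log2 fold change of 0.45 (SE 0.05, adjusted p = 6.9e-10, edgeR). The outer coat gene *Sec13*, the most abundant of the group per length (104 FPKM), was at 0.28 ± 0.03, and its partner *Sec31a* at 0.16 ± 0.03. *Sec24b* was at 0.21 ± 0.04 and *Sec23ip*, which binds Sec23, at 0.16 ± 0.03. The inner coat genes *Sec23a* (0.15 ± 0.04) and *Sec23b* (0.11 ± 0.04) were the closest to 0, and *Sec23b* lost its call when any of 6 single libraries was left out (adjusted p up to 0.069, edgeR). The gene that fell was *Sec16a*, the scaffold of the exit sites where COPII forms, with 1957, 2136, 1919.7 and 1947 counts in EV and 1816, 1862, 1687 and 1722 in KO libraries (-0.17 ± 0.04, adjusted p = 1.1e-04, edgeR).

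The 7 listed COPI genes divided. *Copg1* (0.42 ± 0.03), *Copa* (0.32 ± 0.03) and *Copb1* (0.24 ± 0.03) rose, *Copz2* (-0.35 ± 0.06), *Copg2* (-0.22 ± 0.04) and *Cope* (-0.15 ± 0.03) fell, and *Copz1* (0.07 ± 0.03) did not pass. The median of the 7 was 0.07 with TMM and -0.05 with library totals, and the same 3 rose and 3 fell under both. *Copa*, the alpha subunit of the outer coat, had 6071, 6115, 5901 and 5911 counts in EV and 7511, 7482, 7506 and 7519 in KO libraries. Its KO libraries were nearly equal and all above the EV libraries. *Copg1*, a gamma subunit, went from 4929 ± 179 to 6605 ± 120.05 counts (mean ± SD, n = 4), and its groups did not overlap either. *Copz2*, a zeta subunit, had 474, 465, 517 and 503 counts in EV and 379, 376, 382 and 406 in KO libraries, all lower. Genes on the other strand cover 17.8% of the exonic bases of *Copg2*, 9.58% of *Copa* and 8.55% of *Copg1*.

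Of the 7 Arf and Arf GAP genes, 5 rose and 2 fell (median 0.24). With library totals the median was 0.12 and 4 of the 5 were still called higher, where 32.3% of all listed genes were. *Arf1*, the GTPase that recruits COPI and adaptors to the Golgi, was the most abundant of all 152 genes per length, at 356 FPKM in EV and 392 FPKM in KO libraries. It had 13380.4, 13115, 13266 and 13324 normalised counts in EV and 16113, 15424, 16074 and 15774 in KO libraries, with no overlap (0.26 ± 0.02, adjusted p = 1.2e-11, edgeR). *Arf6*, which acts at the plasma membrane in endocytosis and recycling, had 4274, 4313, 4243 and 4232 counts in EV and 5421, 5188, 5569 and 5173 in KO libraries (0.32 ± 0.03). *Arf4* was at 0.29 ± 0.03, *Arf2* at 0.18 ± 0.04 and *Arfgap1*, which switches Arf1 off, at 0.24 ± 0.03. *Arf5*, 96.5 FPKM in EV and 73.6 FPKM in KO libraries, fell (-0.27 ± 0.03), as did *Arfgap3* (-0.26 ± 0.05). Opposite-strand genes cover 16.4% of the exonic bases of *Arf5*, 17.7% of *Arf4* and 13.6% of *Arf6*, and 10.5% of the 50-base words of *Arf1* occur in other genes.

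Promoters of the members were read to show what sequence stands before these genes. RefSeq promoters (GRCm38.p6, 250 bases before to 50 after the start) matched 122 of the 152 members, 117 of them within 500 bases of the start in the deposited table. The unfolded protein response element UPRE, searched as TGACGTGG on both strands, is the sequence that XBP1 and ATF6 are known to bind. It was in 3 of the 122 promoters (2.46%), in 0.676% of all 32851 RefSeq promoters and in 0.882% of the 6349 matched promoters of the table. The 3 genes were *Sec23a*, *Copb1* and *Arf1*, which encode a COPII subunit, a COPI subunit and the GTPase that recruits COPI, and which were all called higher. By call, the element was in 1.05% of the higher and 0.68% of the lower genes of the table. The 3 promoters are printed because they carry that element, in capitals, read on the gene's strand (Sec23a chr12:59011968-59012267, Copb1 chr7:114254631-114254930, Arf1 chr11:59228218-59228517, all on the minus strand). The match begins at base 257 in *Sec23a*, 223 in *Copb1* (in the reverse direction) and 272 in *Arf1*, counted from 1 at the 5′ end of the 300 bases. A match is a description of the letters and not a site of binding, and with library totals alone *Sec23a* was not called.
Sec23a: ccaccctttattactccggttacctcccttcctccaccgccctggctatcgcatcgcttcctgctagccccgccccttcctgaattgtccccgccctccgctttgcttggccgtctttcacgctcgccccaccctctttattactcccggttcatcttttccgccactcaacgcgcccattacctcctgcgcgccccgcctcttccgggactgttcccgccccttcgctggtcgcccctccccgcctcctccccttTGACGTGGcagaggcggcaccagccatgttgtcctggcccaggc
Copb1: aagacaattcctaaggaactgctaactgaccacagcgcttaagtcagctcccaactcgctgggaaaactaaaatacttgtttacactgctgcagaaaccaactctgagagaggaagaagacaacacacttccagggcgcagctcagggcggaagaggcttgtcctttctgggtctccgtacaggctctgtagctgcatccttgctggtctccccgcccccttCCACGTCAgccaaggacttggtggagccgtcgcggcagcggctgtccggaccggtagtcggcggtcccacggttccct
Arf1: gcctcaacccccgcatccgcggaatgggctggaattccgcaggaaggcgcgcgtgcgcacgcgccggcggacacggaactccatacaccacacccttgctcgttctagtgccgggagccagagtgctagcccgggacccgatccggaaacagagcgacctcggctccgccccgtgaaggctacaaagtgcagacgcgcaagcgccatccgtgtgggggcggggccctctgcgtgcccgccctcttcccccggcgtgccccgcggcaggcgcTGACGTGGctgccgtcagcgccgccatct

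TRAPP, which activates Rab1 and tethers early secretory vesicles, had 7 listed subunits, of which 5 fell and 2 rose (median -0.29). *Trappc12* had 947, 929.7, 969 and 979.9 normalised counts in EV and 693, 630.1, 657 and 685 in KO libraries (-0.52 ± 0.04, adjusted p = 8.1e-13, edgeR). *Trappc2l*, the most abundant TRAPP gene per length (64.3 FPKM in EV, 43.4 FPKM in KO), was at -0.45 ± 0.06, *Trappc9* at -0.42 ± 0.06, *Trappc6a* at -0.29 ± 0.08 and *Trappc1* at -0.25 ± 0.05. The core subunit gene *Trappc4* went the other way, with 745, 762, 784 and 744 counts in EV and 934, 1012, 1060.00 and 960.3 in KO libraries (0.39 ± 0.05, adjusted p = 1.4e-09, edgeR). *Rps25* lies on the other strand over 18.9% of the exonic bases of *Trappc4*. *Trappc10* (0.10 ± 0.03) was called higher with TMM, at -0.01 with library totals, and lost its call when any of 5 single libraries was left out.

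*Cog7* was the only one of 8 COG genes in the table. COG tethers vesicles within the Golgi, and *Cog7* fell, from 468 ± 42.9 to 314 ± 16.9 counts (-0.58 ± 0.07, adjusted p = 1.5e-09, edgeR). Of GARP, which tethers vesicles that return from endosomes, *Vps51* fell (-0.57 ± 0.05) and *Vps54* was at 0.09 ± 0.04, not past the test. *Tm7sf2* overlaps *Vps51* on the same strand, and same-strand genes cover 18.0% of its exonic bases.

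Adaptor genes changed by small amounts. Of 8, 5 fell and 3 rose (median -0.10), and none was called higher with library totals. *Ap1m1*, a cargo-binding subunit of the AP-1 adaptor of the trans-Golgi network, had 2175, 1996, 2077 and 1986 counts in EV and 1507, 1519.8, 1591 and 1569.7 in KO libraries, with no overlap (-0.41 ± 0.03, adjusted p = 8.7e-13, edgeR). Its partner *Ap1g1* was at 0.15 ± 0.03, and *Gm17344* lies on the other strand over 18.7% of the exonic bases of *Ap1g1*. In the endocytic adaptor AP-2, *Ap2a2*, the most abundant adaptor gene per length at 75.3 FPKM, was at 0.14 ± 0.03 and *Ap2b1* at -0.09 ± 0.03. In AP-3, which sorts to lysosomes and related organelles, *Ap3s1* (-0.32 ± 0.04), *Ap3s2* (-0.19 ± 0.04) and *Ap3d1* (-0.10 ± 0.03) fell and *Ap3m1* (0.16 ± 0.03) rose. The call of *Ap3d1* was lost without KO library 4 (adjusted p = 0.011, edgeR). With size factors recovered from the deposited group means, neither *Ap3d1* nor *Ap2b1* was called. *Vcl* covers 29.8% of the exonic bases of *Ap3m1* on the other strand, and 12.2% of the 50-base words of *Ap3m1* and 18.8% of those of *Ap3s1* occur in other genes, mainly pseudogenes.

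Among the 30 listed Rab GTPases, 18 fell, 11 rose and 1 did not pass (median -0.22), where 49.6% of all listed genes were called lower and 47.1% higher. *Rab27b*, which docks secretory granules and multivesicular bodies at the plasma membrane, fell most of all 152 genes. It had 941, 866, 851 and 813 normalised counts in EV and 358, 423, 407 and 418 in KO libraries (-1.10 ± 0.06, adjusted p = 6.2e-19, edgeR). Every KO library was far below every EV library. *Rab32*, which acts at lysosome-related organelles and mitochondria, had 119, 123, 87.4 and 136 counts in EV and 67.0, 70.1, 61.9 and 66.3 in KO libraries (-0.82 ± 0.13). EV library 3 lay well below the other EV libraries but still above all KO libraries. *Rab36*, with few reads, had 72.1, 75.2, 70.7 and 52.1 counts in EV and 33.5, 51.0, 48.7 and 30.8 in KO libraries (-0.69 ± 0.18, adjusted p = 4.6e-04, edgeR), and the lowest EV and highest KO library nearly met.

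Other Rabs fell by less. *Rab13*, which acts in junction assembly, was at -0.58 ± 0.07, *Rab3d* at -0.56 ± 0.07 and *Rab3a* at -0.32 ± 0.10, the last losing its call when any of 3 single libraries was left out. *Rab8b* (-0.42 ± 0.05) and *Rab8a* (-0.26 ± 0.03), which carry cargo to the surface and the cilium, and the recycling Rabs *Rab11a* (-0.27 ± 0.04), *Rab11b* (-0.22 ± 0.03) and *Rab4a* (-0.25 ± 0.08) fell as well. The call of *Rab4a* was lost without KO library 1 or KO library 2. *Rab29*, *Rab31*, *Rab24*, *Rab12* and *Rab34* fell by between 0.19 and 0.49 on the log2 scale. *Rab1b*, of the early secretory route (151 FPKM in EV, 119 FPKM in KO), and *Rab5c*, of early endosomes (122 and 98.1 FPKM), are among the most abundant Rabs per length and fell too (-0.23 ± 0.03 and -0.20 ± 0.03 on the log2 scale). The gene *Prelid1* lies on the other strand over 62.4% of the exonic bases of *Rab24*.

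The Rabs that rose did so mostly by small amounts. *Rab7*, the Rab of late endosomes and the most abundant Rab per length (161 FPKM in EV, 169 FPKM in KO), had 6421, 6509.96, 6479.8 and 6649 counts in EV and 7311, 7436, 7459 and 7412 in KO libraries (0.18 ± 0.03, adjusted p = 3.6e-08, edgeR). With library totals it was at 0.07, and 11.2% of its 50-base words occur in other genes. *Rab23* (0.21 ± 0.04), *Rab6a* (0.20 ± 0.04), *Rab1* (0.18 ± 0.03, the gene now named *Rab1a*), *Rab35* (0.17 ± 0.04), *Rab14* (0.15 ± 0.03), *Rab5a* (0.14 ± 0.03), *Rab21* (0.13 ± 0.03), *Rab10* (0.13 ± 0.03) and *Rab2a* (0.10 ± 0.03, -0.02 with library totals) followed. *Rab6b* was at 0.08 ± 0.04 and did not pass. *Mrpl48* lies on the other strand over 19.0% of the exonic bases of *Rab6a*. With library totals alone, 1 Rab GTPase was called higher. That was *Rab37*, at 21.3, 21.0, 13.5 and 19.4 normalised counts in EV and 33.5, 33.7, 37.5 and 33.6 in KO libraries (0.88 ± 0.22, adjusted p = 3.7e-04, edgeR), which is the least abundant Rab of the table.

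Of 5 genes named for the Rabs they work with, 3 fell, 1 rose and 1 did not pass. *Rab11fip2*, the effector that links Rab11 to the motor myosin V on recycling endosomes, had 1376, 1430.5, 1376 and 1259 counts in EV and 711, 723, 783 and 762 in KO libraries (-0.87 ± 0.04, adjusted p = 7.4e-19, edgeR). The lowest EV library was far above the highest KO library. *Rab11fip3* (-0.22 ± 0.03) and *Rab3gap1* (-0.15 ± 0.03) fell less, *Rab3ip*, an exchange factor for Rab8, rose (0.27 ± 0.05), and *Rab11fip5* was at 0.13 ± 0.05.

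TBC proteins, most of which stimulate Rabs to hydrolyse GTP, were lower in 10 of 12 cases (median -0.32), and none of the 12 missed the test. Among all 8278 listed genes, 49.6% were called lower and 276 missed the test. *Tbc1d4*, the Akt substrate that restrains the glucose transporter GLUT4 inside the cell, had 219.7, 244, 223 and 209 counts in EV and 109, 104, 90.0 and 129 in KO libraries (-1.05 ± 0.10, adjusted p = 1.7e-11, edgeR). *Tbc1d2b* had 2006, 2233, 2221 and 2196 counts in EV and 1239, 1171, 1082 and 1092 in KO libraries (-0.92 ± 0.04, adjusted p = 1.2e-20, edgeR), the smallest p-value among the 152 genes. For both, the KO libraries were far below the EV libraries. *Tbc1d9b* (-0.48 ± 0.04), *Tbc1d8b* (-0.40 ± 0.04), *Tbc1d32* (-0.39 ± 0.08), *Tbc1d16* (-0.32 ± 0.06) and *Tbc1d17* (-0.32 ± 0.05) fell too, and *Tbc1d5*, which acts on Rab7 with retromer, *Tbc1d13* and *Tbc1d20* fell by 0.16, 0.15 and 0.12. The call of *Tbc1d20* was lost without KO library 2. *Akt1s1* and *Il4i1* lie on the other strand over 36.1% of the exonic bases of *Tbc1d17*. The exceptions were *Tbc1d15*, a GAP for Rab7 (0.20 ± 0.03, 0.08 with library totals), and *Tbc1d31*. *Tbc1d31* encodes a protein of the centriolar satellites and rose from 779.6, 801, 779 and 773 counts in the EV libraries to 1399, 1401, 1416 and 1382 in the KO libraries (0.84 ± 0.04, adjusted p = 3.1e-20, edgeR). All KO libraries were far above the EV libraries and close to each other.

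**Figure D2:**
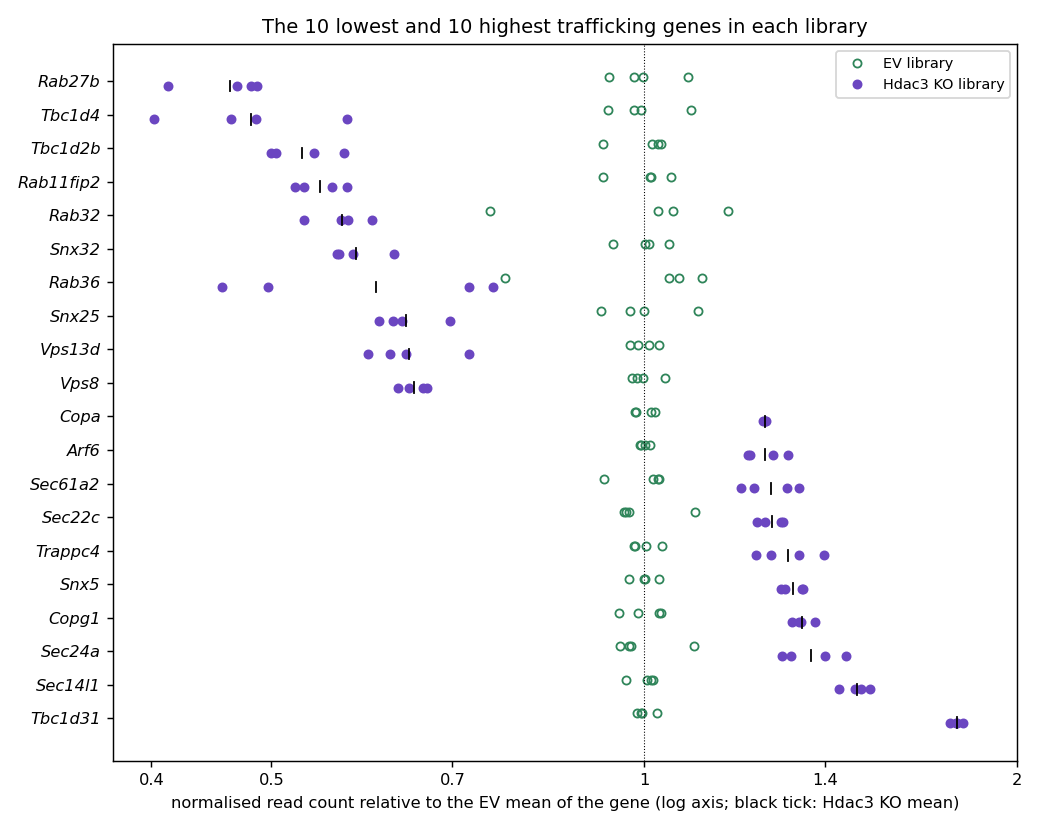
Normalised read count of each library divided by the EV mean of the gene (horizontal axis, log scale) for the 10 genes with the lowest and the 10 with the highest log2 fold change among called genes that reach a mean of 50 counts in the higher group and whose libraries do not overlap. Open circles are EV and filled circles *Hdac3* KO libraries, and the black tick is the KO mean; the KO and EV circles of *Rab36* nearly touch, and those of *Tbc1d31* and *Copa* are the tightest.

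Among the endosomal genes, retromer and its partners were divided. Retromer retrieves cargo from endosomes with a core of Vps35, Vps26 and Vps29 and partner sorting nexins. *Vps35*, at 127 FPKM in EV and 146 FPKM in KO libraries the most abundant Vps gene per length, had 7843, 7528, 7561 and 7304 counts in EV and 8990.02, 9339, 9784 and 9669 in KO libraries (0.32 ± 0.03, adjusted p = 1.6e-12, edgeR). *Vps26a* rose as well (0.21 ± 0.03), and *Vps29* was at 0.09 ± 0.04, not past the test (adjusted p = 0.016, edgeR). The membrane-bending partners went both ways. *Snx5* had 4881, 4748, 4759 and 4623 counts in EV and 6123, 6178, 6375 and 6383 in KO libraries (0.40 ± 0.03), all higher, while *Snx1* (-0.36 ± 0.04) and *Snx2* (-0.26 ± 0.03) fell and *Snx6* was at 0.10 ± 0.04. *Snx32*, a close relative of *Snx5* and *Snx6* expressed at a much lower level per length, had 213, 203, 205 and 192 counts in EV and 115, 127, 118 and 115 in KO libraries (-0.77 ± 0.09, adjusted p = 2.7e-09, edgeR). *Cfl1* lies on the other strand over 13.2% of its exonic bases. *Snx27*, which links retromer to receptors with a PDZ motif, fell by 0.17 on the log2 scale. Over the 9 genes, 4 fell, 3 rose and 2 did not pass, with a median of 0.09 with TMM and -0.03 with library totals, and the same 3 genes rose under both.

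Of 12 other sorting nexins, 9 fell and 3 rose (median -0.43), and none was called higher with library totals. Among all listed genes, 49.6% were called lower, and 32.3% were called higher with library totals. *Snx25*, which carries an RGS domain, had 607, 671, 592 and 561 counts in EV and 423, 381, 371 and 387 in KO libraries (-0.64 ± 0.06, adjusted p = 1.2e-11, edgeR), with no overlap. *Snx9* and *Snx33*, which bind dynamin or actin regulators during endocytosis, were at -0.50 ± 0.04 and -0.55 ± 0.04. *Snx9* was the most abundant of the 12 per length, at 42.1 FPKM in EV and 27.5 FPKM in KO libraries. *Snx24* (-0.51 ± 0.06), *Snx21* (-0.45 ± 0.07), *Snx13* (-0.41 ± 0.04), *Snx19* (-0.20 ± 0.04) and *Snx4* (-0.19 ± 0.03) fell as well. *Snx29* was at -0.61 ± 0.17 with a mean of 64.6 counts in EV, and its call was lost without EV library 4. *Snx15*, *Snx18* and *Snx10* rose by 0.28, 0.23 and 0.15 on the log2 scale.

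HOPS and CORVET are tethers of late and early endosomes that share a core. *Vps8*, found in CORVET alone, had 786, 803, 793 and 835 counts in EV and 537, 519, 533 and 509 in KO libraries (-0.62 ± 0.05, adjusted p = 5.4e-14, edgeR). The HOPS subunits *Vps41* (-0.30 ± 0.04) and *Vps39* (-0.28 ± 0.05) also fell. In the shared core *Vps16* fell (-0.40 ± 0.04), while *Vps33a* (0.24 ± 0.03) and *Vps11* (0.20 ± 0.04) rose, the last not with library totals (0.09, not called). The median of the 6 genes was -0.29.

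In the ESCRT machinery, which buds vesicles into multivesicular bodies, the changes were small. Of 6 genes with a Vps name, 4 rose, 1 fell and 1 did not pass, and none of the 4 was called higher with library totals. *Vps37a* was at 0.24 ± 0.05, *Vps36* at 0.14 ± 0.04, *Vps4a* at 0.14 ± 0.04, *Vps37b* at 0.13 ± 0.05, *Vps4b* at 0.06 ± 0.03 and *Vps37c* at -0.16 ± 0.05. The call of *Vps37b* was lost when any of 5 single libraries was left out and that of *Vps37c* without EV library 3 or KO library 4, and genes on the other strand cover 42.5% of the exonic bases of *Vps37b*. All 3 listed genes of the Vps13 family, which move lipids between organelles, fell. *Vps13d* had 1213, 1192, 1167 and 1149 counts in EV and 735, 851, 706 and 758 in KO libraries (-0.63 ± 0.05, adjusted p = 2.3e-14, edgeR), and *Vps13b* and *Vps13a* were at -0.24 ± 0.06 and -0.17 ± 0.04.

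The promoters were also searched for CACGTG, the palindromic E-box that reads the same on both strands and is known to be bound by USF, MYC and TFEB family factors, the last of which act on lysosomal genes. It was in 19 of the 122 matched members (15.6%), in 7.15% of all RefSeq promoters of this length and in 10.9% of the 6349 matched promoters of the table. By call it was in 12 of 45 matched members that were higher, where 12.3% of the higher genes of the table held it, and in 7 of 67 that were lower, where 9.78% of the lower genes of the table held it. With library totals alone 4 of these 12, *Snx5*, *Sec22c*, *Vps33a* and *Vps26a*, were still called higher. The 19 were *Snx5*, *Sec22c*, *Vps33a*, *Snx18*, *Rab23*, *Vps26a*, *Tbc1d15*, *Sec23ip*, *Stx6*, *Rab5a*, *Rab21* and *Trappc10* among the higher genes and *Vamp4*, *Vps16*, *Rab24*, *Arf5*, *Tbc1d5*, *Tbc1d13* and *Tbc1d20* among the lower. The 3 with the highest log2 fold changes are printed to show where the E-box, in capitals, stands (Snx5 chr2:144270523-144270822, Sec22c chr9:121704980-121705279, Vps33a chr5:123572966-123573265, all on the minus strand). The E-box begins at base 201 in *Snx5* and 77 in *Sec22c*, and *Vps33a* has 2, at bases 223 and 239. The RefSeq start used lies 334 bases from the start in the deposited table for *Snx5* and 461 bases for *Sec22c*.
Snx5: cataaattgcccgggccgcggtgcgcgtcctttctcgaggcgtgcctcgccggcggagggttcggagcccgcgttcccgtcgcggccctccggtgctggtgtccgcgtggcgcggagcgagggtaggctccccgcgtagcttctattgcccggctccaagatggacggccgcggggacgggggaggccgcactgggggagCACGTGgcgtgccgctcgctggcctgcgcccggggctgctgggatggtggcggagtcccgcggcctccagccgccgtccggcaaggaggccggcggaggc
Sec22c: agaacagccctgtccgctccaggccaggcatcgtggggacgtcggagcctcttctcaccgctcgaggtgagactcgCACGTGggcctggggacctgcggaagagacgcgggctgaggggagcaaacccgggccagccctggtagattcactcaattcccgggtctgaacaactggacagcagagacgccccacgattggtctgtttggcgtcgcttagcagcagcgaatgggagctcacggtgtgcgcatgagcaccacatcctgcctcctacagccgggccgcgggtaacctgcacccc
Vps33a: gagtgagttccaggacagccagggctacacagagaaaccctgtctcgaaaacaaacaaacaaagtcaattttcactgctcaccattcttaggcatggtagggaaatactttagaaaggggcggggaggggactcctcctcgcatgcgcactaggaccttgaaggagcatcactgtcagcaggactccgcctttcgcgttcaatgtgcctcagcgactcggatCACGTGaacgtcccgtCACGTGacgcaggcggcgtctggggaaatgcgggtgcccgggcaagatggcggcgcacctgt

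Other motifs were rarer or nearer to the share in the table. The cAMP response element TGACGTCA was in 4 of the 122 promoters (3.28%, against 3.42% in the table), those of *Rab11fip3*, *Cope* and *Ap2b1* among the lower genes (3 of 67, against 2.33% of the lower genes of the table) and of *Rab5a* among the higher (1 of 45, against 4.51%). The ETS motif CCGGAAGT was in 9 (7.38%, against 8.87% in the table). It was in *Rab11fip2*, *Cog7*, *Trappc12*, *Exoc3*, *Rab24* and *Rab11a* among the lower genes (6 of 67, against 6.06% of the lower genes of the table) and in *Trappc10*, *Sec31a* and *Sec13* among the higher (3 of 45, against 11.25% of the higher genes of the table). The endoplasmic reticulum stress element, searched as CCAAT and, after any 9 bases, CCACG on both strands like the others, was in none of the 122 and in 0.119% of all RefSeq promoters. These shares carry no test.

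SNAREs fuse the vesicle with its target, and of the 16 SNARE and Sec22 genes 9 fell, 4 rose and 3 did not pass (median -0.27). Among all listed genes, 49.6% were called lower and 47.1% higher. With library totals alone *Sec22c* was the 1 gene of the 16 still called higher. *Stx11*, a syntaxin of granule and endosomal membranes, had 131, 137, 111 and 140.4 counts in EV and 85.9, 82.9, 75.9 and 109 in KO libraries (-0.56 ± 0.12, adjusted p = 8.5e-05, edgeR), with the highest KO library just under the lowest EV library. The late endosomal SNAREs *Stx7* (-0.47 ± 0.04), *Vamp8* (-0.35 ± 0.04) and *Stx8* (-0.34 ± 0.06), which work in the same fusion complex, all fell. *Vamp4*, of the trans-Golgi network, was at -0.50 ± 0.08, the plasma membrane syntaxin *Stx4a* at -0.38 ± 0.05, *Vamp5* at -0.27 ± 0.06 and *Stx17*, of autophagosomes, at -0.26 ± 0.06. *Sec22a* fell (-0.35 ± 0.06) and *Sec22c* rose (0.35 ± 0.06), from 434, 381, 384 and 380.5 counts in EV to 487, 494, 509 and 510.5 in KO libraries, and *Sec22b* was at 0.08 ± 0.03. *Vamp3*, of recycling endosomes and the most abundant of these 16 genes per length (46.5 FPKM), rose (0.22 ± 0.04). So did *Stx2* (0.19 ± 0.03) and *Stx6* (0.16 ± 0.05), the last not without EV library 1. *Stx1a* had 149, 140.4, 116 and 117 counts in EV and 157, 145, 160.3 and 163 in KO libraries, which overlap (0.27 ± 0.10, adjusted p = 0.012, edgeR), and *Stx3* was at 0.08 ± 0.04.

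The exocyst tethers secretory vesicles at the plasma membrane, and 6 of its 7 listed genes fell (median -0.29), where 49.6% of all listed genes were called lower. *Exoc7*, a subunit that binds the membrane lipid PIP2, had 1109, 1162, 1181 and 1176 counts in EV and 789, 784, 781 and 725 in KO libraries (-0.59 ± 0.04, adjusted p = 7.0e-15, edgeR). *Exoc6b* (-0.33 ± 0.03), *Exoc4* (-0.33 ± 0.03), *Exoc3* (-0.29 ± 0.04), *Exoc2* (-0.23 ± 0.05) and *Exoc6* (-0.19 ± 0.04), the most abundant per length at 26.5 FPKM, fell with it. *Exoc5* had 1348, 1252, 1158 and 1150.3 counts in EV and 1313, 1341, 1363 and 1412 in KO libraries, which overlap (0.15 ± 0.04, adjusted p = 0.0014, edgeR), and its higher call was lost with library totals and without EV library 3 or EV library 4. The 2 Sec14-like genes, which share a name with the yeast lipid carrier, rose. *Sec14l1* had 3899, 3850.3, 3704 and 3882 counts in EV and 5830.3, 5739.5, 5507 and 5673 in KO libraries (0.57 ± 0.03, adjusted p = 1.8e-19, edgeR), with no overlap. *Sec14l5* had only 2, 1, 2 and 2 raw reads in the EV libraries and 15, 16, 3 and 9 in the KO libraries, 43 against 7 in all. The ratio of the summed reads, scaled for depth, was 5.64 (95% interval 2.51 to 14.8, exact Clopper-Pearson, counting error only).

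Several members are paralogues that make the same subunit or Rab, and the share of one within the pair does not depend on how libraries are scaled. Of 16 such pairs, 3 were called in opposite directions, 6 were both lower, 3 were both higher, and 4 had a member that did not pass. The pairs and shares were chosen after the values were seen and carry no test. *Copg1* made up 77.8%, 79.8%, 79.4% and 79.9% of the summed FPKM of *Copg1* and *Copg2* in the EV libraries and 85.8%, 84.9%, 86.4% and 85.6% in the KO libraries. *Rab1* made up 42.1%, 41.4%, 41.0% and 40.1% of the pair with *Rab1b* in EV and 47.3%, 48.1%, 48.5% and 48.7% in KO libraries. *Rab5a* made up 25.3% ± 0.942 (SD, n = 4) of the pair with *Rab5c* in EV and 29.9% ± 0.241 in KO libraries. In these 3 pairs the shares of the groups did not overlap.

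The same was so for *Copz1* against *Copz2* (73.6% ± 0.853 and 78.8% ± 0.645, SD, n = 4) and for *Snx5* against *Snx6* (71.0% ± 0.377 and 75.2% ± 0.851). Shares did not overlap in 10 of the 16 pairs, also in pairs called in the same direction (*Snx1* with *Snx2*, *Ap3s1* with *Ap3s2*, *Rab3a* with *Rab3d* and *Exoc6* with *Exoc6b*) and in *Vps4a* with *Vps4b*. Single genes without overlap were common in the table (46.6% lower and 44.4% higher), and no such share was computed for other pairs. Among the pairs with both genes lower, the summed FPKM, which rests on library totals, was lower in KO libraries. It went from 87.0 to 65.0 for *Snx1* and *Snx2*, with *Snx1* at 39.2% of the pair in EV and 37.6% in KO libraries, and from 63.5 to 47.6 for *Ap3s1* and *Ap3s2*. It went from 46.3 to 35.9 for *Rab11a* and *Rab11b* and from 37.4 to 27.9 for *Rab8a* and *Rab8b*, pairs whose shares overlapped. *Sec61a1* and *Sec61a2* kept overlapping shares, at 94.8% ± 0.311 and 94.6% ± 0.273 for *Sec61a1*. Reads that fit both members of a pair could be split by the counting, which is not described for these files.

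**Figure D3:**
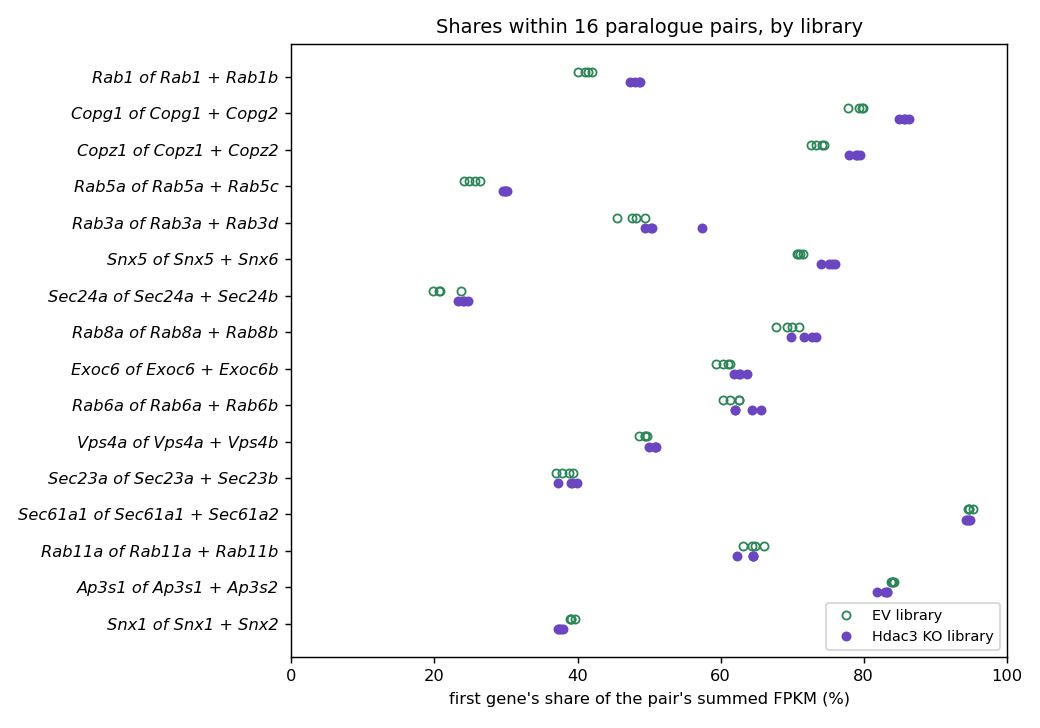
Share of the first gene in the summed FPKM of each paralogue pair (horizontal axis, percent) in the 4 EV libraries (open circles) and the 4 *Hdac3* KO libraries (filled circles), ordered by the difference of the means. The shares of *Rab1*, *Copg1*, *Copz1* and *Rab5a* lie apart in the groups, and those of *Sec23a*, *Sec61a1* and *Rab11a* overlap.

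The direction of change differed with the level of expression. The members were ordered by their FPKM in EV MCECs and cut into 3 bins. In the highest bin (50 genes, 34.1 to 356 FPKM) 20 genes fell and 26 rose. In the middle bin (52 genes) 27 fell and 22 rose, and in the lowest bin (50 genes, up to 13.3 FPKM) 38 fell and 9 rose. All listed genes, binned in the same way, had 1037 lower and 1607 higher genes in the highest bin and 1703 lower and 1005 higher genes in the lowest. The median log2 fold changes of the members' bins were 0.11, -0.15 and -0.30 from the highest to the lowest, and those of all genes were 0.15, 0.08 and -0.38. Because the levels are those of the EV libraries, which also enter the fold change, these are descriptions without a test.

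**Figure D4:**
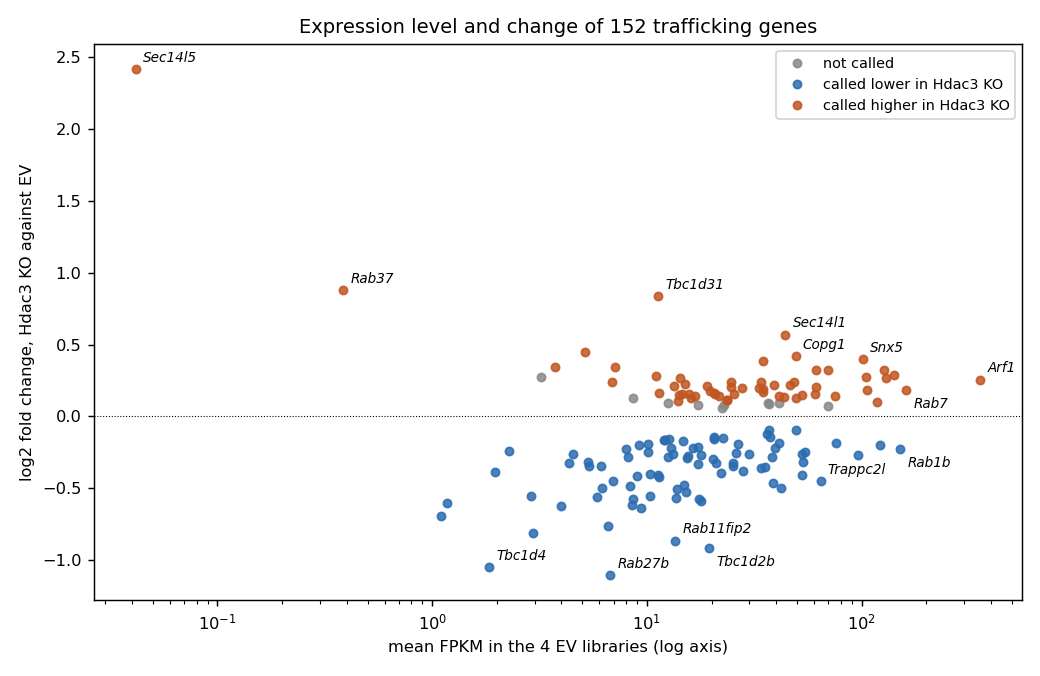
Mean FPKM in the 4 EV libraries (horizontal axis, log scale) against the log2 fold change of *Hdac3* KO against EV (vertical axis) for the 152 genes, coloured by call. The genes over 100 FPKM lie within 0.5 of a log2 fold change of 0, and *Rab27b* and *Tbc1d4* lie lowest; *Sec14l5* and *Rab37*, at the left, rest on few reads.

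Other genes of the same routes, which the name rule leaves out, were taken from a list of 185, of which 106 were in the table. Of these 60 fell (56.6%, against 49.6% of all listed genes), 44 rose (41.5% against 47.1%) and 2 did not pass (median -0.20). With library totals alone the same number, 60, were called lower and 24 higher. Among 24 regulators of Rabs, mostly those that load, extract or lipid-modify them, 17 fell and 7 rose (5 with library totals). *Rin2*, an exchange factor for Rab5, fell from 770.3 ± 33.3 to 247 ± 31.6 counts (-1.64 ± 0.07, adjusted p = 7.7e-22, edgeR). *Dennd2a*, a DENN-domain exchange factor, was at -0.85 ± 0.06, and *Rabggtb*, a subunit of the enzyme that attaches the lipid anchor to Rabs, rose (0.47 ± 0.03). *Stxbp6*, a SNARE-binding protein, was at -0.90 ± 0.06. Of 14 Arf exchange factors and Arf-like GTPases 10 fell and 4 rose, with *Sar1a*, *Sar1b* and *Preb*, which act with COPII, among the 4. Of 11 ESCRT genes without a Vps name 7 fell and 4 rose. In each of these groups 1 of the 4 was still called higher with library totals. Of 8 golgins and Golgi tethers 4 fell and 4 rose (median -0.06), and none was called higher with library totals.

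Of 20 cargo receptors and early secretory factors 13 rose, where 47.1% of all listed genes were called higher, and 7 fell (median 0.19). With library totals the median was 0.07 and 10 were called higher, against 32.3% of all listed genes. The 13 include *Arcn1*, which encodes a COPI subunit (0.30 ± 0.03). *Tmed5*, a p24 protein of COPII and COPI vesicles, went from 1409.8 ± 51.9 to 2098 ± 161 counts (0.58 ± 0.04, adjusted p = 1.3e-14, edgeR). Of 18 clathrin, dynamin and endocytic adaptor genes 8 fell and 8 rose (6 with library totals). The clathrin heavy chain gene *Cltc* was among the higher, from 14344 ± 478 to 19682 ± 411 counts (0.46 ± 0.03, adjusted p = 1.7e-17, edgeR) and from 118 to 149 FPKM.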

How the data were processed

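Bulk RNA-Seq of 4 EV and 4 *Hdac3* KO MCEC libraries was analysed, grouped by the sample titles. The reads were aligned by the authors to mm10 with tophat2 and bowtie2 (submitters' processing notes also name CASAVA and DESeq 1.6.3). The program that assigned reads to genes, its annotation and its use of strand are not given in the sources used here. The deposited table holds raw read counts, FPKM values that the authors made from count, gene length and library total, the authors' group means of counts divided by size factors (a normalized signal), and their log2 fold change, p-value and adjusted p-value. The authors' log2 fold changes and p-values were not used, and the adjusted p-values only to see that every listed gene is under 0.05. The gene lengths were used with the FPKM values to recover the library totals. The tables split by direction were not used.

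Genes were tested on counts with edgeR 4.0.16 (quasi-likelihood, TMM factors on the recovered totals, R 4.3.3, limma 3.58.1), with Benjamini-Hochberg adjustment over all 8278 genes, no filter, and an adjusted p-value under 0.01. The SE of a log2 fold change was derived as its absolute value divided by the square root of edgeR's F statistic. Normalised counts are counts divided by relative library size. The square root of edgeR's common dispersion, a coefficient of variation within groups without counting error, was 2.82%. The median SD of a member, which includes counting error, was 3.27% of its mean in EV and 3.71% in KO libraries. Reads carry no molecular identifiers, so depth covers counting error only. Named genes are the 10 lowest and 10 highest log2 fold changes among called members with no overlap and a mean of at least 50 in the higher group, the extremes and the most abundant gene of each family, and 3 of each direction of the other trafficking genes. Further members are given by role. Members, roles and lists were chosen with earlier results of these data known. Overlaps and shared 50-base words come from GENCODE M21 (mm10): 33 of the 152 members have at least 5% of either. Promoters come from RefSeq tables of GRCm38.p6. The fit was tested on simulated data in which 200 genes were changed and all others were not. In the deposited table every gene was selected as differing, so the simulation does not cover the scaling or error rate here. Alternatives were DESeq2 1.42.0 and its size factors, totals without TMM, upper-quartile factors, a filter of 10 counts in 4 libraries, a replicate block, other cut-offs, protein-coding genes only, adjustment over 30000 genes and leaving out each library. Size factors recovered from the group means were added after seeing the data. Figures were drawn with matplotlib 3.10.9.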

Additional observations from a re-analysis of the deposited data

Results flagged for a closer look

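Of 84 groups of 4 libraries of named genes, 7 held a library whose distance to the nearest other library was large for the range of its group. About 1 in 20 groups, here 4.2, would do so by chance. *Tbc1d2b* was at 2006 normalised counts in EV library 1, with the other EV libraries between 2196 and 2233. *Sec24a* was at 693 in EV library 3, with the others between 604 and 617. *Sec22c* was at 434 in EV library 1, with the others between 380.5 and 384. *Sec61a2* was at 302 in EV library 4, with the others between 331 and 334. *Rab37* was at 37.5 in KO library 3, with the others between 33.5 and 33.7. *Exoc7* was at 725 in KO library 4, with the others between 781 and 789. *Exoc6* was at 1122 in KO library 1, with the others between 1192 and 1202. Without that library the log2 fold changes were -0.95, 0.50, 0.39, 0.31, 0.84, -0.56 and -0.17 in the same order, and all 7 genes stayed past the cut-off (adjusted p between 4.8e-20 and 0.0013, edgeR).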

How the results depend on the processing

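Leaving out each library in turn gave 82 to 85 lower and 54 to 57 higher members, and a median log2 fold change of -0.18 to -0.15. That median was -0.16 with DESeq2's size factors and with DESeq2's Wald test, -0.28 with library totals without TMM, -0.23 with upper-quartile factors and -0.14 with size factors recovered from the deposited group means, against a between-library SD of 0.0074. Totals without TMM left 22 higher members and 24 higher genes among the other trafficking genes, since all fold changes shift together. Requiring an absolute log2 fold change of 0.5 left 21 lower and 4 higher members and 14 and 1 of the other genes. Under the remaining alternatives both counts were within 1.5 times the main ones, and no named member changed sign under any. Of the 42 named members, 6 lost their call with totals (*Rab7*, *Tbc1d15*, *Ap3m1*, *Ap2a2*, *Vamp3* and *Exoc5*), 2 with upper-quartile factors and 23 under the fold requirement. Deviations of EV and KO libraries with the same number had correlations of -0.107 to 0.119, within the -0.136 to 0.134 of unlike numbers. So few libraries cannot show whether the numbers pair them. With the replicate number as a block, 85 members were lower and 55 higher. Depth limits *Sec14l5* and *Rab37*, the 2 members under 50 counts in both groups.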

Other observations

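Genes of the table that GENCODE M21 names in the same way, but that the table lists under an older symbol, are 4 in number and were looked up after the values of the members were seen. *Rab7b* (listed as *5430435G22Rik*), a Rab of late endosomes and the Golgi, had 236, 214, 208 and 249.8 normalised counts in the EV libraries and 86.9, 139, 106 and 113 in the KO libraries, with no overlap (log2 fold change -1.02, SE 0.11, adjusted p = 1.2e-10, edgeR's quasi-likelihood test). *Rab7*, by contrast, was slightly higher in the KO libraries; the difference between the 2 genes was not tested. *Vps35l* (listed as *9030624J02Rik*) and *Vps26c* (listed as *Dscr3*) encode subunits of retriever, a complex related to retromer that recycles receptors with Snx17. *Vps35l* had 1667, 1680.3, 1621 and 1678 counts in the EV libraries and 1292, 1396, 1323 and 1377 in the KO libraries (-0.30, SE 0.04), and *Vps26c* was at 0.06 (SE 0.03) and did not pass. Their retromer counterparts *Vps35* and *Vps26a* were at 0.32 and 0.21. *Rab5if* (listed as *1110008F13Rik*) rose (0.19, SE 0.04).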
